A study of Schistosoma mansoni with 6 samples.

Results

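The genes described here are 4 entries of a deposited RNA-seq read table that carry names from transforming growth factor-beta (TGF-beta) signalling. They are Smp_067260, named as a type I TGF-beta receptor, Smad1 (smad family member 1), Smp_169780, named smad, and Smp_099440, named as the bone morphogenetic protein antagonist noggin. They were chosen by their changes after irradiation in these same libraries and make up 4 of 13305 entries, of which 10770 have exons and 8885 had enough exon reads to be tested. The libraries come from adult male Schistosoma mansoni, a blood fluke, of the NMRI strain. The irradiated group received 200 Gy of gamma rays and the control group a mock exposure, with 3 libraries (A, B and C) in each. All worms had been recovered from mice 43 days after infection and were kept in culture for 48 hours after the exposure, and the RNA of both groups came from pooled males cut free of head and testes. Such a pool holds every cell type of the posterior body, and the labels do not say whether pools came from separate infections, so that the p-values below measure the spread between these pools.

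TGF-beta family ligands, which include activins and bone morphogenetic proteins (BMPs), bind pairs of type II and type I receptors at the cell surface. Both receptor types are serine/threonine kinases, and the activated type I receptor phosphorylates receptor-regulated Smad proteins, which join Smad4 and enter the nucleus to regulate transcription. Noggin and follistatin are secreted proteins that bind ligands and keep them from their receptors. In schistosomes the pathway has been studied for signals exchanged with the host and for its part in reproduction, and in free-living flatworms BMP signalling patterns the body axis.

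The name of Smp_067260 and its other annotation do not match in the deposited table. All 5 gene ontology terms of Smp_067260 belong to DNA synthesis: DNA replication, nucleus, DNA binding, nucleotidyltransferase activity and DNA-directed DNA polymerase activity. None of its terms names a kinase or a receptor, whereas each of the 5 other receptor entries of the pathway carries such a term and none carries the polymerase term. A separate entry, TGFbetaRI, is named as a type I member of the receptor kinase family. Smp_067260 is therefore given by its identifier, and its values cannot be taken as those of a receptor kinase from these annotations.

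Smp_067260 was the lowest of the 4 genes and the only large change among them. It had 41, 7 and 20 exon reads in irradiated libraries A, B and C, against 93, 91 and 65 in controls A, B and C. Scaled by exon length and depth, these were 0.644, 0.150 and 0.393 RPKM (reads per kilobase of exon, scaled to library depth) after irradiation, against 1.62, 1.77 and 1.70 RPKM in controls. The groups did not overlap, and the irradiated libraries were spread over a wide range while the controls lay close together. The group means were 0.395 ± 0.247 RPKM in irradiated worms and 1.70 ± 0.0772 RPKM in controls (SD, n = 3 each). The log2 fold change of exon reads, irradiated over control, was -2.05 (SE 0.32), or 4.14-fold lower.

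The spread of Smp_067260 after irradiation exceeded what counting alone gives. The 7 reads of irradiated B have an exact Poisson 95% interval of 2.81 to 14.4 reads, and the 41 reads of irradiated A one of 29.4 to 55.6 reads, which covers counting error only. Leaving out irradiated A moved the log2 fold change to -2.64, the farthest from the value on all 6, and leaving out irradiated B moved it to -1.71. Without each of the other 4 libraries in turn it lay between -2.10 and -1.99. In tissue RNA of this kind, fewer cells that express a gene and less of its RNA per cell cannot be told apart.

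The 10 genes used as markers of dividing stem cells were lower after irradiation, as was Smp_067260. They were ago2-1, nanos-2, fgfrA, fgfrB, MCM2, MCM4, MCM5, MCM6, a histone H2A gene and cyclin B. All 10 were called lower, against 2.49% of all genes tested. A call means that the edgeR p, adjusted over 8885 genes by the Benjamini-Hochberg method, is below 0.05. These markers were taken up here from earlier results on these data, so nothing is read from their count. Their summed level was 17.2, 21.4 and 20.3 RPKM in irradiated A, B and C, against 95.1 to 101 RPKM in controls, and no marker was at 0 in any library. Irradiated B, the lowest library for Smp_067260, was the highest irradiated library for the marker sum. The part of stem cell loss in the change of Smp_067260 was not tested.

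**Figure D1:**
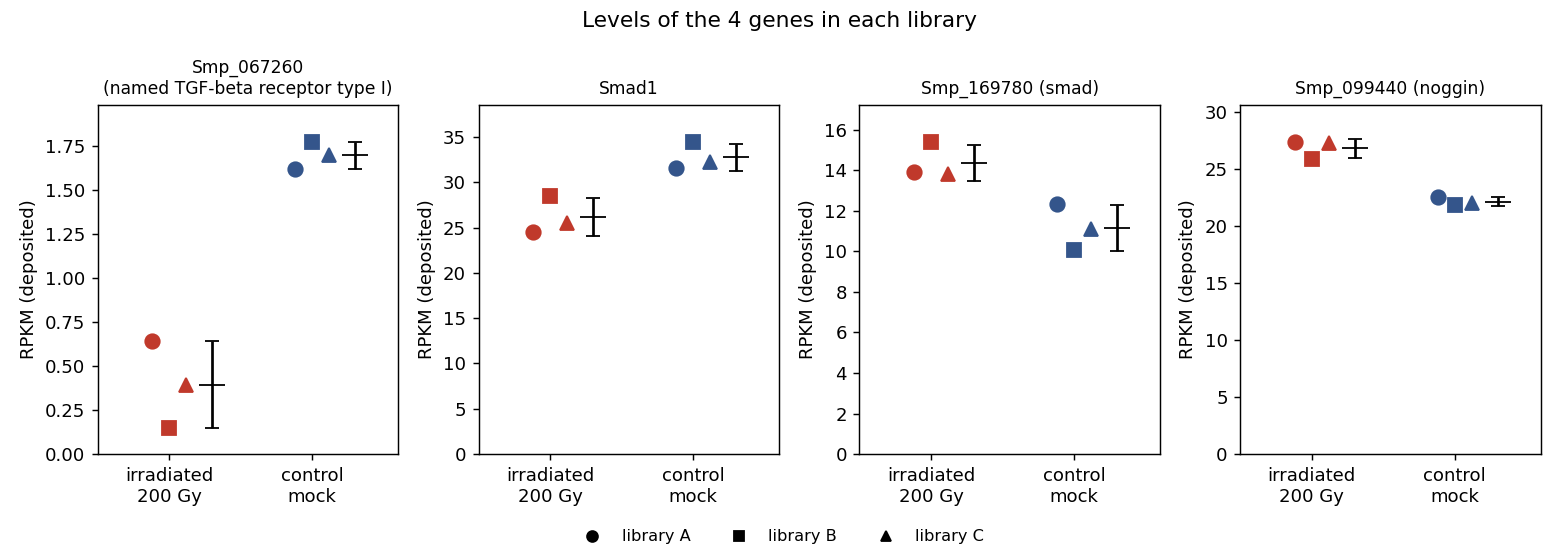
Deposited RPKM (vertical axis, from 0) of the 4 genes in each irradiated library (red, left) and each control library (blue, right), with a symbol for each library letter and the mean ± SD of 3 beside the points. Smp_067260 lies between 0.150 and 0.644 RPKM after irradiation, below 1.62 to 1.77 RPKM in controls, and the other 3 genes differ by far smaller folds.

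Reads outside the exons of Smp_067260 were also fewer after irradiation, by a smaller factor. Intronic reads, counted as gene reads minus exon reads, numbered 27, 29 and 19 in irradiated A, B and C, against 60, 85 and 39 in controls. The intronic log2 fold change was -1.22 (SE 0.21), 0.83 closer to 0 than that of the exon reads. Scaled by the exon library sizes, the intronic change was -1.44, with the median of all 7539 genes with enough intronic reads at -0.22. Without irradiated B, the intronic change was -1.38 and the exon change -1.71. In irradiated B, introns took 80.6% of the gene's reads (95% Wilson interval 65.0% to 90.2%), whereas in irradiated A and C they took 39.7% and 48.7%, against 37.5% to 48.3% in controls. Reads that join 2 exons, which come from spliced RNA, numbered 17, 2 and 8 in irradiated libraries, against 42, 35 and 33 in controls. Irradiated B thus stood apart from the other 5 libraries in its few exon reads and not in its intronic reads.

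The 2 smad genes among the 4 went in opposite directions, each by less than 1.3-fold. Smad1, whose namesake in other animals is a receptor-regulated Smad of the BMP branch, had 24.5, 28.5 and 25.5 RPKM in irradiated A, B and C, against 31.6, 34.4 and 32.3 RPKM in controls. The groups did not overlap, and library B was the highest in both of them. Means were 26.2 ± 2.10 RPKM after irradiation and 32.8 ± 1.48 RPKM in controls (SD, n = 3 each), a log2 fold change of -0.35 (SE 0.07). Smp_169780, whose class of Smad the table does not give, had 13.9, 15.4 and 13.8 RPKM after irradiation, against 12.3, 10.0 and 11.1 RPKM in controls. Its groups did not overlap either, and the gap between irradiated C and control A was the narrowest. Means were 14.4 ± 0.885 RPKM after irradiation and 11.2 ± 1.15 RPKM in controls, a log2 fold change of 0.34 (SE 0.08).

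Taken within each library, Smad1 had 1.76, 1.86 and 1.85 times the RPKM of Smp_169780 after irradiation, against 2.56, 3.43 and 2.91 times in controls. Across the 6 smad entries of the table, whose summed level was 197 ± 8.64 RPKM after irradiation and 207 ± 1.88 RPKM in controls, Smad1 made up 13.0% to 13.9% in irradiated libraries and 15.2% to 16.6% in controls. Smp_169780 made up 7.04% to 7.47% of the same sum after irradiation and 4.84% to 5.94% in controls. Smad1 and Smp_169780 were chosen for changes in opposite directions, so these shifts in ratio and share follow from that choice. The intronic log2 fold change of Smad1 was -0.13 (SE 0.11) on 677 irradiated and 766 control reads, or -0.35 scaled by exon library sizes. That of Smp_169780 was 0.20 (SE 0.10) on 736 irradiated and 673 control reads, but -0.0071 when intronic reads were scaled by the exon library sizes, a scaling that put the median of all 7539 genes with enough intronic reads at -0.22.

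Noggin (Smp_099440) was higher after irradiation by a small amount with little spread. It had 27.3, 25.8 and 27.2 RPKM in irradiated A, B and C, against 22.5, 21.8 and 22.0 RPKM in controls. Every irradiated library lay above every control, and the controls lay within 1 RPKM of each other. Means were 26.8 ± 0.842 RPKM after irradiation and 22.1 ± 0.394 RPKM in controls (SD, n = 3 each), a log2 fold change of 0.25 (SE 0.05). Smad1 and noggin overlapped in level after irradiation, with Smad1 at 0.897 to 1.10 times noggin, whereas in controls Smad1 stood at 1.40 to 1.58 times noggin. Both genes were chosen on this contrast, in opposite directions, so this shift follows from that choice.

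No read joined 2 exons of noggin in any library, although its gene model has 3 exons and held 4984 exon reads in all. A total of 1165 reads instead ran across a border between an exon and an intron, which was 23.5% of its exon reads after irradiation and 23.2% in controls. Among 6214 tested genes with at least 3 exons and 1000 exon reads, 27 (0.435%) had no exon-exon read, and the median gene had 35.1% of exon reads joining exons and 2.35% crossing an exon-intron border. For Smad1, exon-exon reads made up 19.8% of exon reads after irradiation and 20.0% in controls, and for Smp_169780 they made up 12.9% after irradiation and 12.8% in controls. The RPKM of noggin rests on the deposited exon model, whose junctions no read in these libraries spanned. The second noggin entry, Smp_076490, has a single exon.

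**Figure D2:**
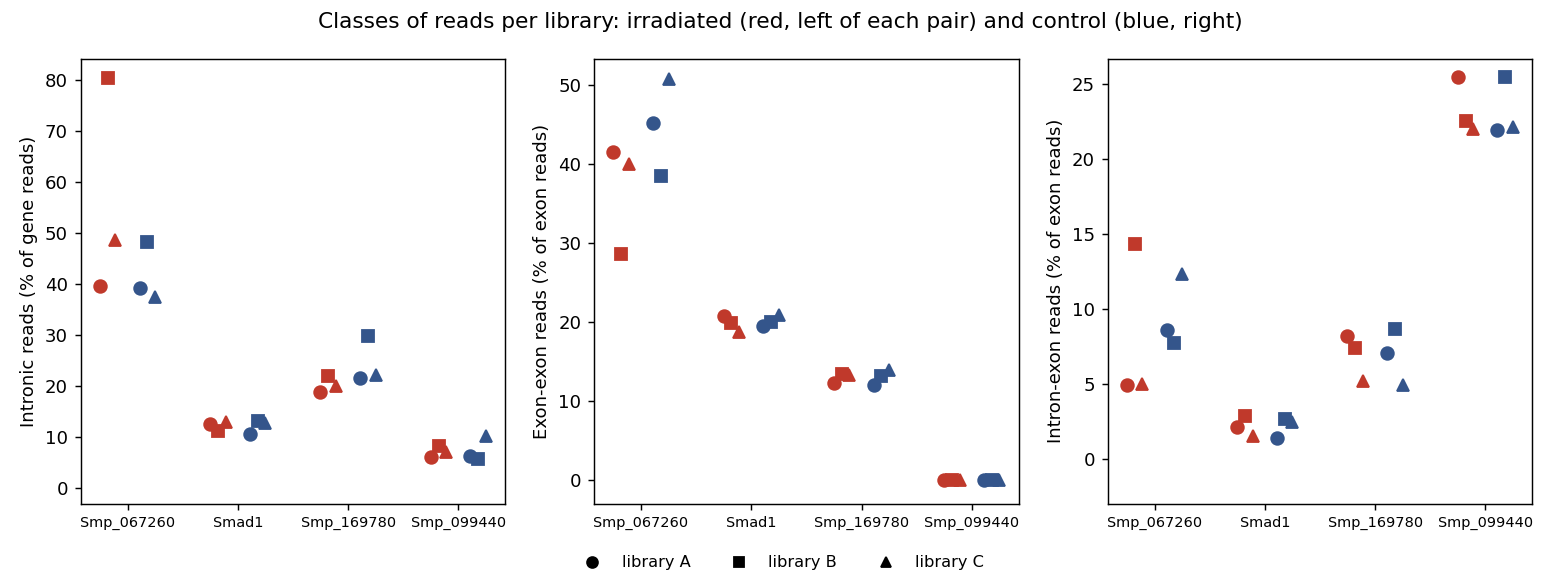
Share of reads by class for the 4 genes in each library (irradiated red, control blue, symbols by library letter): intronic reads as a percentage of gene reads (left), exon-exon reads (middle) and reads across an intron-exon border (right) as percentages of exon reads. Irradiated B reaches 80.6% intronic reads for Smp_067260, and noggin has 0 exon-exon reads in all 6 libraries.

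All 4 genes passed the test of exon reads, Smp_067260 and Smad1 lower and the other 2 higher, which is how they came to be chosen. Over all 8885 genes tested, 2.49% were called lower and 0.619% higher, and 25.0% had groups that did not overlap in RPKM. Nothing is read from the members' own count, since the same contrast chose them. In the authors' deposited table the fold changes, negative where irradiated worms are lower, are -4.30 for Smp_067260, -1.25 for Smad1, 1.29 for Smp_169780 and 1.21 for noggin.

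The rest of the pathway was described by 22 further entries, taken from the table by product name: 2 ligands, 5 receptors, 4 smads, 2 antagonists and 9 cofactors and modulators. All 22 were tested, and 0 were called in either direction by edgeR. At an unadjusted p under 0.05 there were 8 lower and 1 higher. DESeq2 called 1 of the 22 lower, and 490 lower over all genes. Of all 8885 genes, 1919 had an unadjusted p under 0.05. In 8 of the 22 the groups did not overlap, against 25.0% of all genes tested. The log2 fold changes ran from -0.35 to 0.23 with a median of -0.05, against 0.00 over all genes, so no entry outside the 4 changed by as much as 1.3-fold.

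The 5 entries with receptor annotation lay far above Smp_067260 in level and close to each other in change. The activin receptor entries Smp_124450 and Smp_093540, which bind activin-type ligands in other animals, had 40.2 ± 2.13 and 32.9 ± 0.491 RPKM after irradiation, against 44.8 ± 3.01 and 36.1 ± 0.694 RPKM in controls. Their log2 fold changes were -0.18 (SE 0.06, adjusted p = 0.140, edgeR) and -0.16 (SE 0.05, adjusted p = 0.115, edgeR). TGFbetaRI, the entry classed as a type I receptor, had 29.7 ± 1.57 RPKM after irradiation and 30.9 ± 1.52 RPKM in controls, which is -0.08 on the log2 scale (SE 0.06, adjusted p = 0.456, edgeR). TGFbetaRII, the type II partner, had 15.7 ± 1.28 RPKM after irradiation and 16.1 ± 0.772 RPKM in controls, and Smp_144390, named TGF-beta receptor, 27.9 ± 1.36 RPKM after irradiation and 31.0 ± 0.654 RPKM in controls. All 5 fold changes were below 0, between -0.18 and -0.07, and no call passed in this fit. With the library letter as a replicate block, a pairing that was not settled, 851 genes were called lower. Among them were Smp_144390, Smp_124450 and Smp_093540 (adjusted p = 0.0216, 0.0189 and 0.0444, edgeR). The summed level of these 5 was 146 ± 5.82 RPKM after irradiation and 159 ± 5.94 RPKM in controls. The order of these 5 in controls was Smp_124450, Smp_093540, then Smp_144390 and TGFbetaRI, whose ranges overlapped, and last TGFbetaRII.

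Among the other smads, Smad2 was closest to Smad1 in level and in change. Smad2, the receptor-regulated Smad of the TGF-beta and activin branch in other animals, had 21.7, 25.3 and 22.0 RPKM in irradiated A, B and C, against 26.6, 29.0 and 29.8 RPKM in controls. As with Smad1, the groups did not overlap and irradiated B was the highest of its group. Its log2 fold change was -0.33 (SE 0.08) and its adjusted p 0.0551 (edgeR), so it was not called. It was called without irradiated B (adjusted p = 0.00615) and without control A (adjusted p = 0.0287), and by DESeq2 (adjusted p = 0.00198). Without each other library in turn it was not called (adjusted p from 0.189 to 0.202, edgeR). Of 18 alternative fits, Smad2 was called in 7. These also included no filter beyond 1 read, exon-exon reads, the library letter as a replicate block and thinning to the smallest library. Smad4, the partner shared by both branches, stood at -0.11 on the log2 scale (SE 0.05, adjusted p = 0.265, edgeR). The most abundant smads, Smad8 at 52.6 ± 2.06 RPKM after irradiation and 51.2 ± 2.50 RPKM in controls and Smp_157540 at 41.7 ± 1.24 RPKM after irradiation and 41.6 ± 1.53 RPKM in controls, differed between groups by 0.01 (SE 0.05) and -0.02 (SE 0.05) on the log2 scale. In the order of levels in controls, Smad8 came first, Smp_157540 and Smad4 overlapped, and Smad1, Smad2 and Smp_169780 followed without overlap. After irradiation the ranges of Smad1 and Smad2 overlapped.

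The 2 ligands and the remaining antagonists had fold changes above 0, as noggin did, and none was called; those of InACT and follistatin changed sign when 1 library was left out. BMP, a ligand of the bone morphogenetic protein branch that noggin binds in other animals, had 13.8 ± 0.384 RPKM after irradiation and 11.6 ± 1.54 RPKM in controls, or 0.22 on the log2 scale (SE 0.08, adjusted p = 0.155, edgeR). Without control A it was called (log2 fold change 0.32, adjusted p = 0.0391), and without each other library in turn it was not (adjusted p from 0.179 to 0.386, edgeR). InACT, the activin-type ligand, was near the bottom of the pathway, with 140 exon reads in irradiated and 121 in control libraries, and had a log2 fold change of 0.04 (SE 0.22). The second noggin, Smp_076490, had 11.9 ± 1.51 RPKM after irradiation and 10.0 ± 0.375 RPKM in controls, or 0.23 on the log2 scale (SE 0.11, adjusted p = 0.247, edgeR). Follistatin (Smp_123300), an antagonist of activins, had 8.32 ± 1.57 RPKM after irradiation and 7.78 ± 0.827 RPKM in controls. The 3 antagonists together summed to 47.1 ± 0.827 RPKM after irradiation and 39.9 ± 0.916 RPKM in controls, a sum that includes the noggin entry chosen for its rise.

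Of the cofactors and modulators, the entry named for the sno and ski oncogenes (Smp_123000), which hold Smads back in other animals, had the change farthest from 0. It had 14.8, 21.1 and 14.3 RPKM in irradiated A, B and C, against 19.7, 22.8 and 20.2 RPKM in controls. Irradiated B lay within the range of the controls and the other irradiated libraries below it. Its log2 fold change was -0.35 (SE 0.14, adjusted p = 0.196, edgeR), and without irradiated B it was -0.56 (adjusted p = 0.00382). Without irradiated B, 723 genes were called lower, against 221 with all libraries. Without each other library in turn, Smp_123000 was not called (adjusted p from 0.164 to 0.477, edgeR). The immunophilin SmFKB12, which binds type I receptors in mammals, was the most abundant entry at 318 ± 16.9 RPKM after irradiation and 295 ± 22.0 RPKM in controls. The glypican Smp_158320, a cell-surface proteoglycan, had 49.4 ± 2.52 RPKM after irradiation and 53.9 ± 2.11 RPKM in controls.

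**Figure D3:**
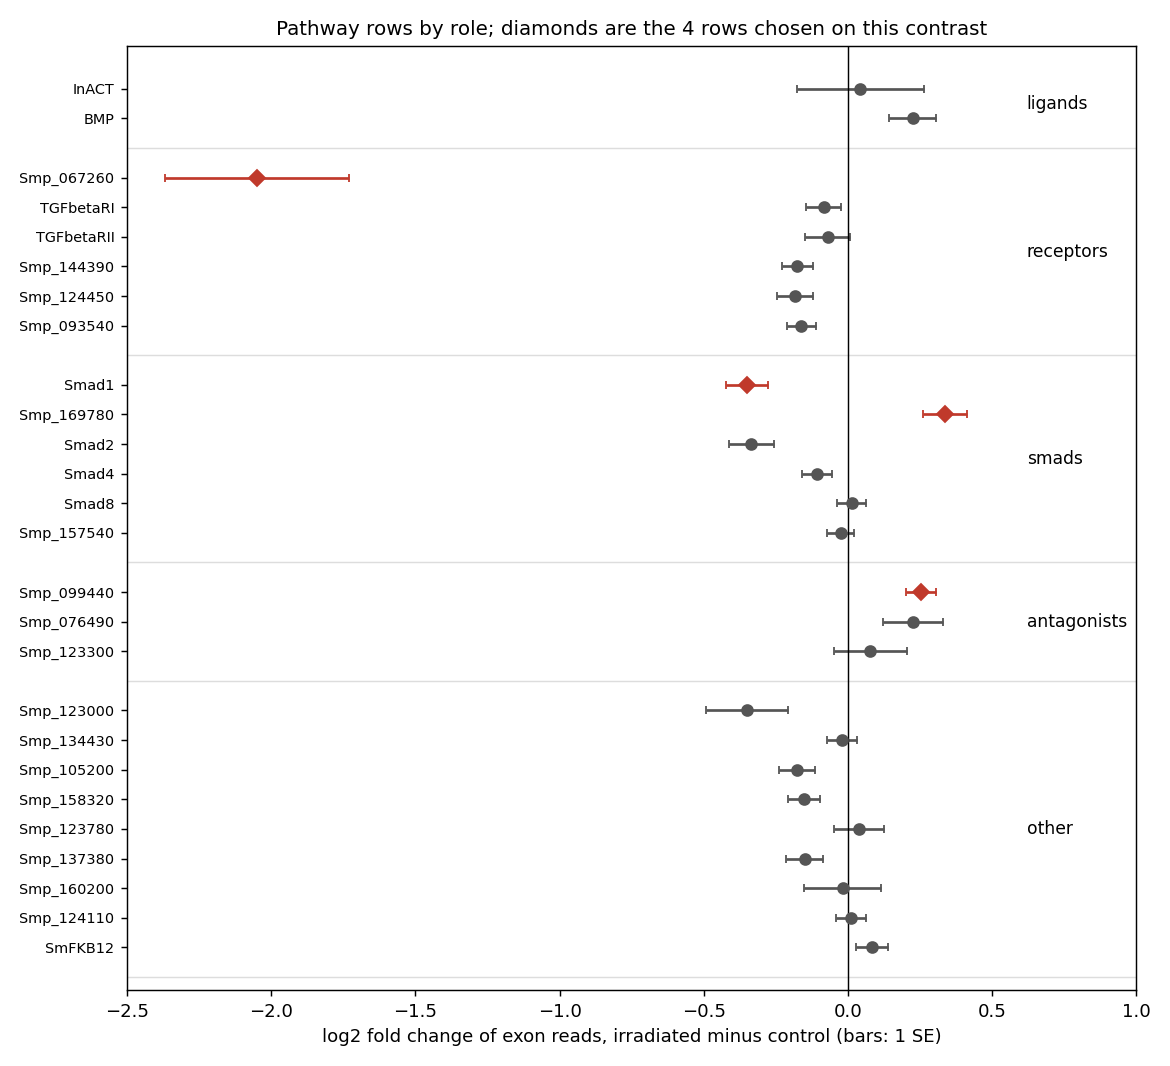
Log2 fold change of exon reads, irradiated minus control (horizontal axis, bars of 1 SE), for the 26 pathway entries in order of role. Red diamonds are the 4 genes chosen on this contrast and grey points the 22 others, which lie between -0.35 and 0.23, while Smp_067260 lies at -2.05.

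Genes with the most similar profiles were sought as those with the smallest root mean square difference of mean-centred log2 CPM (depth-scaled counts) over the 6 libraries, among 4820 candidates that carry a product name and average 1 log2 CPM or more. The libraries and their depth are shared by all genes, and the profiles are dominated by the group difference. Closest to Smp_067260 were kif4a (Smp_173450), a chromosome-bound kinesin, a serine/threonine kinase (Smp_166150) and a gene related to the histone mRNA stem-loop binding protein (Smp_137390), at 0.44, 0.48 and 0.54 log2 units. Closest to Smad1 were a PI3 kinase (Smp_150140), a CpG-binding protein (Smp_022020) and a serine/threonine kinase (Smp_155330), at 0.016, 0.022 and 0.022. For Smp_169780 these were a frizzled receptor (Smp_155340), an amine G protein-coupled receptor (Smp_150180) and a gene named paramyosin (Smp_198290), at 0.043, 0.068 and 0.068. For noggin they were an alpha tubulin (Smp_103140), a tetraspanin (Smp_174630) and a steroid dehydrogenase (Smp_102190), at 0.037, 0.038 and 0.039. No gene came as near to Smp_067260 as those of the other 3 genes did. Counting error enters this distance, and Smp_067260 had only 317 exon reads over the 6 libraries. Its SD among irradiated libraries was 0.94 log2 CPM, against 0.037 to 0.12 for the other 3. The part of counting error in the larger distances was not tested.

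No gene beside the members on the chromosome was called in the same direction as its neighbour. In the RefSeq table of assembly ASM23792v2, used only for which genes neighbour each other, 3 of the 4 were found and none overlapped another protein-coding gene. The neighbours of Smp_067260, a gene for an fms interacting protein (Smp_067250) and a semaphorin (Smp_158550), stood at -0.09 (SE 0.05) and -0.07 (SE 0.05) on the log2 scale. Those of Smp_169780, Smp_087580 and Smp_087560, had -0.03 (SE 0.06) and 0.16 (SE 0.05), and neither was called. On 1 side of noggin lay an nfil3/e4bp4 transcription factor gene (Smp_176710), called lower at -0.93 on the log2 scale (SE 0.18, adjusted p = 0.0274, edgeR), and on the other Smp_099420, at 0.10 (SE 0.06).

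The libraries held 21594259 to 29641087 exon reads after irradiation and 17577059 to 26858868 in controls, and a count of 0 would allow up to 3 reads, or 0.101 to 0.171 CPM. Of the gene reads of entries with exons, exons took 83.9% in control B and 86.9% to 88.3% in the other 5 libraries. Of the marker genes for other tissues, 3 of 3 tegument genes were called higher, against 0.619% of all genes tested. Their summed level was 1577 to 1844 RPKM after irradiation and 1170 to 1386 RPKM in controls. For muscle, 2 of 2 genes were called lower, against 2.49% of all genes tested. These summed to 7.02 to 8.10 RPKM after irradiation and 11.7 to 11.9 RPKM in controls. The muscle list holds titin, at -0.41 on the log2 scale, and the paramyosin entry Smp_169970, at -3.50, whereas the paramyosin entries Smp_198290 and Smp_021920, looked up after the values were seen, stood at 0.24 and -0.04 and were not called. Of 2 gut genes 1 was called lower, and of 2 neuron genes 1 was called lower and 1 higher, with overlapping sums in both cases: 1355 to 1410 RPKM after irradiation and 1338 to 1473 RPKM in controls for gut, 52.6 to 56.4 RPKM after irradiation and 48.9 to 54.3 RPKM in controls for neurons. The 3 egg genes, of which 2 were tested and 0 called, summed to 638 to 695 RPKM after irradiation. In controls they summed to 646 to 717 RPKM, although all worms were males. Nearly all of this came from 2 entries named major egg antigen (Smp_049250 and Smp_049300). The eggshell precursor Smp_000430 averaged 0.144 RPKM after irradiation and 0.122 RPKM in controls, with 26 exon reads in all. The head gland genes, nearly all from MEG-6, summed to 2751 to 2842 RPKM after irradiation and 2651 to 2746 RPKM in controls, although heads had been removed. MEG-4 was at 0 in 4 libraries. Noggin and Smp_169780 were higher, as were the 3 tegument genes and synaptotagmin. Smad1 was lower, as were the 10 stem cell markers, the 2 listed muscle genes, the gut peptidase and synapsin. The gut saposin was not called, and the neuron genes went in opposite directions. All markers were taken from earlier results on these data, and a shared direction does not tie a gene to a tissue. The part of tissue make-up in these small changes was not tested.

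The direction of the exon-read change of all 4 genes held under every processing choice tried that left the gene in the test. The genes were chosen on this contrast and their groups did not overlap, so their direction had little room to change. The log2 fold change of Smad1 lay between -0.42 and -0.29, that of Smp_169780 between 0.28 and 0.41 and that of noggin between 0.24 and 0.31. The calls were lost more often: of 6 fits that each left out 1 library, Smp_067260 was called in 5, all but that without control C. Smad1 was called in 2, without irradiated B or control A, Smp_169780 in 1, without control A, and noggin in 1, without irradiated B. Over all genes, these 6 fits called 119 to 723 lower and 16 to 129 higher.

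**Figure D4:**
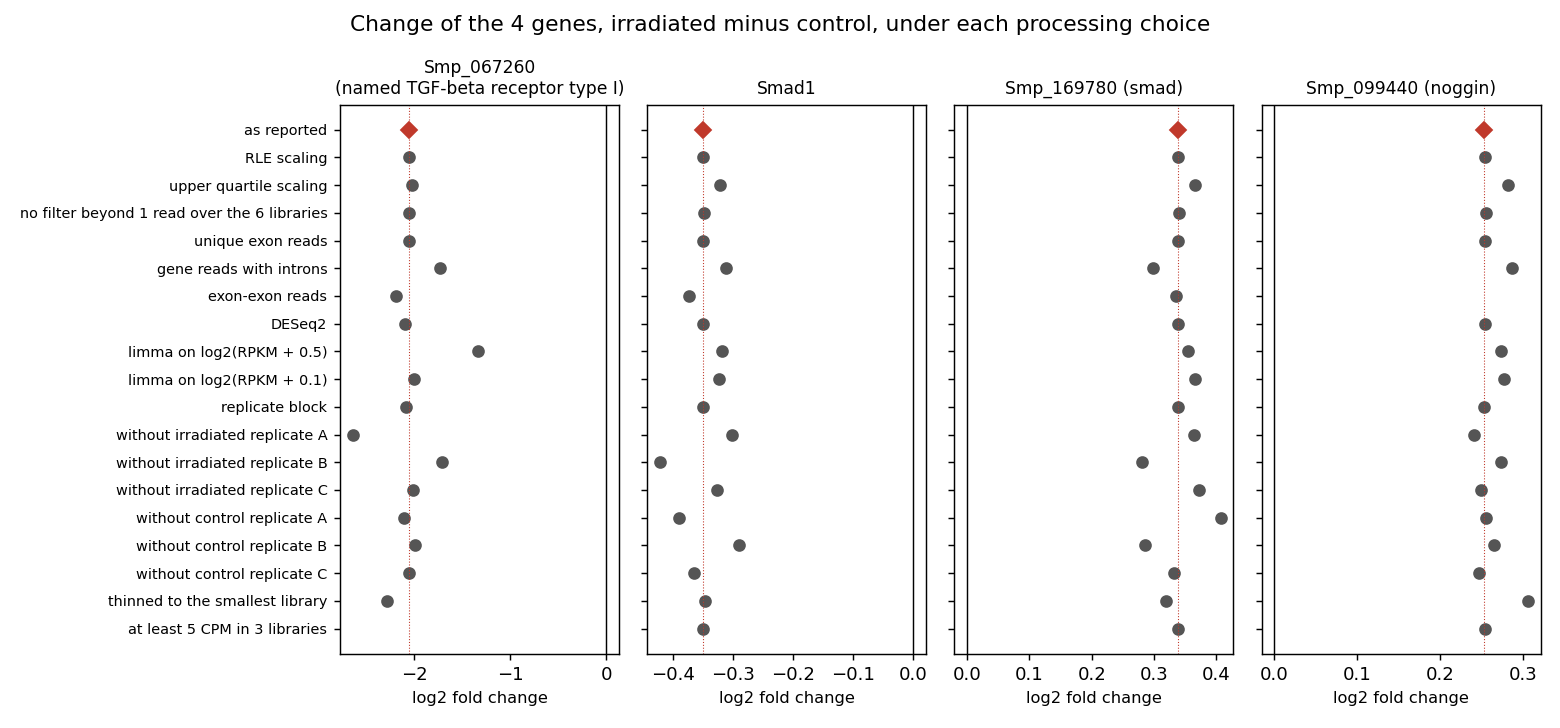
Log2 fold change of exon reads, irradiated minus control (horizontal axis, its own range in each panel), of the 4 genes under each scaling, filter, read class, model and left-out library (vertical axis). Every point lies on the same side of 0 as the value reported (red diamond and dotted line), for genes chosen on this contrast. Smp_067260 lies between -2.64 and -1.33. A choice with no point left the gene untested.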

How the data were processed

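Each library's RNA was sequenced after a TruSeq RNA preparation, per the labels' protocols; the sources used here do not name the aligner, counting program, genome build or annotation. Per the file headers, the deposited table holds whole-number read counts (exon, gene, exon-exon and intron-exon reads, each total and unique), RPKM values, exon numbers and lengths, and the authors' fold change and unadjusted P-value. Recomputing the deposited RPKM as total exon reads over exon length and total gene reads gave relative differences of at most 3.77e-08. Nothing rests on the deposited P-value.

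Total exon read counts of the entries with exons (2535 without exons were left out) were filtered with filterByExpr and scaled by TMM. The irradiated group was set against the control group with the quasi-likelihood test of edgeR 4.0.16 (R 4.3.3), and p-values were adjusted by Benjamini-Hochberg over every gene in the fit. A standard error is the fitted log2 fold change, without shrinkage, over the root of its F statistic. Intronic reads were fitted alike. DESeq2 1.42.0 and limma 3.58.1, on log2(RPKM + 0.5) and log2(RPKM + 0.1), were alternatives. The scripts were checked on simulated counts.

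The 4 genes, the pathway list, the markers and the rule for named genes were chosen with earlier results of these data known. The pathway list took product names that match pathway terms, and 3 that matched by letters or belong to another family were removed by name. Named were the 4 genes, any called pathway entry, the 2 most abundant entries of each role and the 3 nearest profiles. TGFbetaRI, TGFbetaRII, Smp_144390, Smad2, Smad4 and Smp_123000 are named beyond that rule, after their values were seen, and so are the neighbouring genes. Total and unique exon reads of the 4 genes were equal. Whether the kit marks strand is not stated, and overlapping antisense RNA cannot be told apart from that of a gene. No library pair agreed within sampling noise (chi-square per degree of freedom of at least 7.38). Of 26 pathway entries, 17 had a locus tag in the RefSeq table. Intervals and counting limits cover counting error only.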

Additional observations from a re-analysis of the deposited data

How the results depend on the processing

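Whether library letters pair the samples was not settled. Deviations of same-letter libraries from their group means correlated at 0.04 (A), 0.18 (B) and -0.10 (C) across 8885 genes. Only B correlated best with its own letter. With 3 libraries in each group, these correlations cannot show that pairing is absent. With the letter as a replicate block, 851 genes were called lower and 277 higher in place of 221 and 55, and 5 of the 22 pathway entries outside the 4 were called lower. The counts of genes called lower and higher were 490 and 127 with DESeq2, 77 and 26 at a minimum of 5 CPM in 3 libraries, and between 119 and 723 and between 16 and 129 when 1 library was left out, the highest without irradiated B and the lowest without control C. Limma called 140 lower at a pseudocount of 0.5 and 139 at 0.1. Of the 22, 1 was called lower with no filter beyond 1 read, on exon-exon reads, with DESeq2 and after thinning every library to the smallest (an alternative chosen after seeing the data), 0 to 2 with 1 library left out, and 0 or 1 higher there. Of the 4 members, 0 were called at 5 CPM, where Smp_067260 is not tested, 1 on exon-exon reads, 2 with limma at either pseudocount, and 0 to 3 with 1 library left out. The log2 fold change of Smp_067260 was -1.33 with limma at a pseudocount of 0.5, which shrinks low levels. That of noggin was 0.28 with upper quartile scaling, 0.29 on gene reads and 0.31 after thinning. With intronic reads on the exon scaling Smad1 was at -0.35 and Smp_169780 at -0.0071, and Smp_169780 was at 0.44 on reads across an intron-exon border, also chosen after seeing the data. Entries near 0 changed sign: InACT lay between -0.13 and 0.20, Smad8 between -0.024 and 0.048 and follistatin between -0.072 and 0.17 with 1 library left out, Smad8 at -0.022 on exon-exon reads, and Smp_157540 at 0.0038 with upper quartile scaling and 0.0017 with limma at either pseudocount. The cause of these shifts was not tested. With 317 exon reads over 6 libraries, Smp_067260 has the widest counting error of the 4, against 4973 or more reads for the others.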

Other observations

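The DNA-directed DNA polymerase term that Smp_067260 carries is shared by 53 entries of the table, of which 45 others were tested. Of these 45, 3 were called lower and 0 higher in edgeR, and 32 had a log2 fold change below 0. Over all 8885 genes tested, 2.49% were called lower and 0.619% higher, and 49.3% had a log2 fold change below 0. The set was looked up after the values of Smp_067260 were known and is given as a description. Smp_067260 was 1 of a pair with a change of over 4-fold: the DNA polymerase alpha catalytic subunit (Smp_178260), which starts DNA strands in replication, had 0.246 RPKM in irradiated worms and 1.07 RPKM in controls, or -2.16 on the log2 scale (SE 0.14, adjusted p = 2.45e-05, edgeR). The other entries called lower were a KRAB-A domain protein (Smp_195120), at -1.20 (SE 0.10), and an entry named DNA polymerase epsilon catalytic subunit (Smp_210940), at -0.34 (SE 0.07). Smp_210940 had 8.19 RPKM after irradiation and 10.2 RPKM in controls. Entries of the same name at higher levels were not called. Smp_210950 had 32.5 RPKM after irradiation and 32.9 RPKM in controls, or -0.05 (SE 0.05) on the log2 scale. Smp_209030 had 43.3 RPKM after irradiation and 41.0 RPKM in controls, or 0.05 (SE 0.05). The catalytic subunit of DNA polymerase delta (Smp_087010), which copies DNA at the replication fork, had 6.12 RPKM after irradiation and 6.60 RPKM in controls. Its log2 fold change was -0.13 (SE 0.07, adjusted p = 0.341, edgeR). No other entry of the table carries exactly the term set of Smp_067260.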
